A study of Bos taurus with 6 samples.

Results

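Day 42 was set against day 21 in bovine (Bos taurus) bone marrow mesenchymal stem cells kept in agarose hydrogel in a defined medium without TGF-beta3, with 1 Affymetrix array on each side. The members are the probe sets, which each read a transcript, that are no Affymetrix controls and had a signal over 50 on at least 1 of the 2 arrays. This rule took 10581 of the 24016 probe sets, of which 8971 were over 50 on both arrays, 1125 at day 21 alone and 485 at day 42 alone. They name 5347 of the 9155 genes that have a probe set with 1 gene symbol, and 3713 of them have no gene name of their own. The series has 6 arrays, and the other 4 held the same kind of construct at day 3 without TGF-beta3, at days 21 and 42 with TGF-beta3, and at day 42 with TGF-beta3 after 21 days of preculture and 21 days of dynamic compression. Every group shares the agarose and the defined medium, and the labels describe the cells kept without TGF-beta3 as undifferentiated. Donors, pooling of constructs and cell number per array are not given in the sources used here.

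Mesenchymal stem cells of the marrow are stromal cells that can be led towards cartilage, bone or fat in culture. TGF-beta3 is the factor usually added to start cartilage formation in hydrogels, and constructs kept without it serve as the undifferentiated control. Interferon-response genes form an antiviral program that interferons switch on through STAT transcription factors. Smooth muscle actin, fibrillar collagens and lysyl oxidase belong to the contractile, matrix-forming state that stromal cells take on in stiff or TGF-beta-rich surroundings.

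With 1 array per day there is no replicate, so no p-value can be given, and the words higher and lower describe these 2 arrays and not the conditions. Signals under 15.1, the 40th percentile of all values, were set to that floor before the log2 difference was taken, and a fold against a value at the floor is written as a lower bound. A probe set or gene counted as higher or lower when the difference was at least 2-fold, a log2 difference of 1. The only technical spread the pair offers comes from genes read by several probe sets. In 1169 such genes the SD of the log2 difference among a gene's probe sets had a median of 0.31, and in 681 of them (58.3%) all probe sets lay on the same side of 0.

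At the 2-fold size, 355 probe sets (3.36%) were higher and 1025 (9.69%) were lower at day 42, around a median log2 difference of -0.06 with quartiles at -0.48 and 0.28. With the brightest probe set per named gene, 199 of 5347 genes (3.72%) were higher and 260 (4.86%) were lower, and the median was 0.08. Among the 4759 genes over 50 on both arrays the counts were nearly even, 98 higher (2.06%) and 96 lower (2.02%), while the 8971 probe sets over 50 on both arrays had 161 higher (1.79%) and 364 lower (4.06%). The 100 probe sets just inside the signal limit of 50 had a median absolute difference of 0.61, and the 100 just outside it 0.48. Whether the limit itself marks a break in the data was not tested.

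The split between higher and lower depended on the scaling. On the values as deposited 25.7% of the probe sets past 2-fold were higher, against 67.7% after median centring, 46.7% after quantile normalization, 14.3% after equalising the hybridisation spikes and 60.4% after a lowess fit on mean signal. Median centring moved the median of all probe sets up by 0.39 and the spikes moved it down by 0.17, so gene groups are given below beside the median of all genes. The day 42 array had the lower median signal (22.3 against 28.7) and fewer probe sets over 50 (39.4% against 42.0%). Its ratio of 3' to 5' signal, a sign of RNA quality, was higher for all 4 control transcripts read that way, for example 2.27 against 1.72 for GAPDH and 9.10 against 5.14 for eIF4E. The part of these array differences in the results that follow was not tested.

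**Figure D1:**
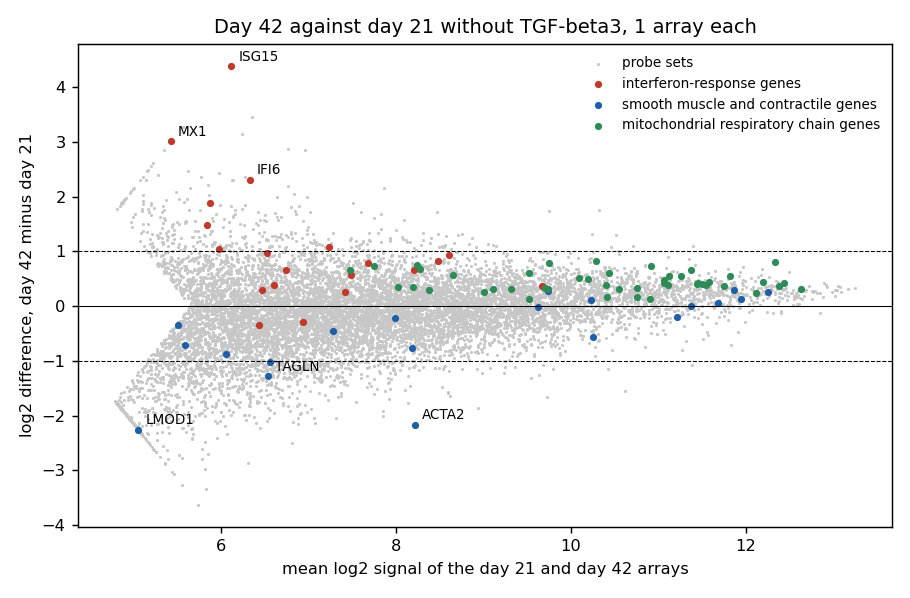
Log2 difference of day 42 minus day 21 without TGF-beta3 (vertical axis) against the mean log2 signal of the 2 arrays (horizontal axis), with 1 grey point per probe set, 3 gene lists in colour and dashed lines at 2-fold. ISG15 and MX1 lie at the upper edge with at least 20.9-fold and at least 8.03-fold, LMOD1 and ACTA2 lie below the lower line, and the respiratory chain genes all lie between 0 and the upper line.

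Interferon-response genes had the highest median among the 33 gene lists, 0.81 on the log2 scale against 0.08 for all genes, and they stayed above the median of all genes under each of the 4 other scalings. Of 54 genes in the list, 37 had a named probe set and 20 were over 50 on at least 1 of the 2 arrays. Of these 20, 7 were at least 2-fold higher, beside 3.72% of all genes, 0 were lower, and 18 had the higher signal at day 42. All but 1 of the 7 entered only through the day 42 array, so the count carries that selection: among the 14 over 50 on both arrays, only PARP12 was 2-fold higher, beside 2.06% of all such genes. The median of 0.81 carries it too: over these 14 genes it was 0.61, against 0.09 for all genes over 50 on both arrays. The 4 other scalings used the same signal limit. The 17 genes that did not reach 50 included 6 over the floor, and all 6 of these also read higher at day 42.

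ISG15, a ubiquitin-like protein that is conjugated to other proteins in the antiviral response, read 142 at day 3, 2.50 at day 21 and 317 at day 42 without TGF-beta3. Against the floor this is at least 20.9-fold higher at day 42 than at day 21. With TGF-beta3 it read 12.6 at day 21, 12.5 at day 42 and 5.64 in the loaded construct, under the floor on all 3 arrays. MX1, a GTPase that blocks viral replication, went the same way with 52.1 at day 3, 4.40 at day 21 and 122 at day 42, at least 8.03-fold higher at day 42, and 4.23, 5.36 and 1.32 on the arrays with TGF-beta3. For both genes the day 21 array without TGF-beta3 is the low array of the 3 without the factor, and the day 42 array is the highest of all 6.

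IFI6, an interferon-induced protein of mitochondria and the endoplasmic reticulum, read 92.2 at day 3, 35.98 at day 21 and 178 at day 42, a 4.95-fold difference between the later days. IFITM1, a membrane protein that restricts virus entry, read 103, 30.7 and 112 on the same arrays, a 3.67-fold difference. It was not low with TGF-beta3, where it read 51.4 at day 21, 131 at day 42 and 125 under loading. PARP9, an ADP-ribosyltransferase of the interferon response, read 61.8, 34.1 and 95.2. Its relative PARP12 read 117, 103 and 219, and SAMD9, an antiviral factor, read 154, 43.9 and 89.99. All of these shared a dip at day 21: 18 of the 20 measured interferon genes read lower at day 21 than at day 3.

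The members between 1 and 2-fold were spread on the same side. UBA7, the activating enzyme for ISG15, read 65.5 at day 21 and 128 at day 42, and IFI16, a DNA sensor, read 280.1 and 537. DTX3L, the partner of PARP9, read 267 and 472, and EIF2AK2, the kinase that senses double-stranded RNA, read 235 and 369. The exceptions were STAT2, part of the transcription factor that drives the program, with 97.2 and 76.4, and PARP14, with 136 and 111. ISG12(B), an interferon-stimulated gene outside the list, read 110.2 at day 21 and 493 at day 42, a 4.47-fold difference, but it read 645 to 789 on the unloaded arrays with TGF-beta3.

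**Figure D2:**
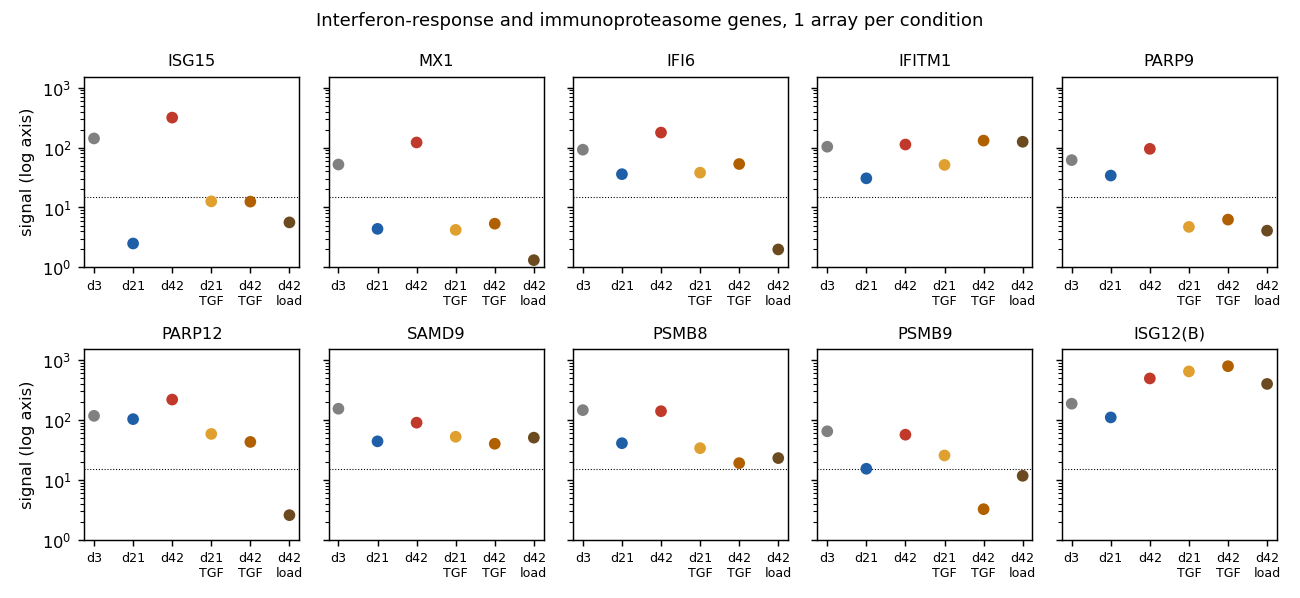
Signal on a log axis of 8 interferon-response or interferon-stimulated genes and 2 immunoproteasome genes on each of the 6 arrays, 1 point per array, with the dotted line at the floor of 15.1 and the arrays ordered as day 3, 21 and 42 without TGF-beta3, then day 21, day 42 and loaded day 42 with it. In every panel the day 21 point without TGF-beta3 lies below the day 3 and day 42 points without it. Each gene shown was at least 2-fold higher at day 42 than at day 21, so that order was set by the choice. STAT2, PARP14 and PSMB10, which read lower at day 42, are not shown.

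Of the 3 immunoproteasome subunits, which replace proteasome subunits to cut peptides for MHC class I, PSMB8 and PSMB9 had the same dip at day 21. PSMB8 read 146 at day 3, 40.9 at day 21 and 139.9 at day 42, a 3.42-fold difference between the later days. PSMB9 read 64.6, 15.3 and 56.7, a 3.71-fold difference. They were the 2 members at least 2-fold higher among the 8 measured genes of antigen presentation, beside 3.72% of all genes, and 0 were lower. Both were over 50 at day 42 alone. The third immunoproteasome subunit, PSMB10, read lower at day 42 (267 and 212), and B2M, the light chain of MHC class I, read 4243 and 5426, both within 2-fold.

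Markers of blood cells in these constructs were low and went both ways. The summed signal of the 5 macrophage markers with a probe set was 322 at day 21 and 421 at day 42, with CSF1R under the floor on both arrays. Of these, 4 were over 50 at day 21 and 3 at day 42, and CD14 read lower (53.4 and 41.5). The summed signal of 5 leukocyte markers was 320 and 382, where CD53, a leukocyte tetraspanin, was 2.05-fold higher (113 and 231) while LCP1 (129.8 and 71.4) and PTPRC (63.6 and 48.2) read lower within 2-fold. The higher leukocyte sum rests on CD53, and 3 of these markers were over 50 at day 21 and 2 at day 42. These sums were 190.0 and 156 at day 3. The 5 endothelial markers were under 50 on both arrays, with 48.6 and 33.0 in sum, and so were the 3 erythroid markers. In RNA of whole constructs, more or fewer cells of a type and more or less RNA per cell cannot be told apart, and the part of blood cells in the interferon difference was not tested.

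Among 23 measured inflammatory cytokine and chemokine genes, 1 was at least 2-fold higher and 2 were lower, beside 3.72% and 4.86% of all genes. Of the 23, 16 lay above the median of all genes, and the list's median was 0.47. S100A9, a calcium-binding alarmin, read 150.0 at day 21 and 306 at day 42, a 2.04-fold difference, and its partner S100A8 read 3138 and 4834. The cytokine IL18 read 69.9 and 132, within 2-fold. The 2 lower members were the adhesion molecule VCAM1, with 159 at day 21 and 47.0 at day 42, and the alarmin cytokine IL33, with 171 and 59.9. VCAM1 was over 50 at day 21 alone, and among the 20 list genes over 50 on both arrays 1 was higher and 1 lower. CFB, the complement factor B of the alternative pathway, read 879 at day 3, 181 at day 21 and 420.2 at day 42. It was the 1 member of 10 measured complement genes past 2-fold, beside 3.72% higher for all genes.

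In the smooth muscle list, 4 of 20 measured genes were at least 2-fold lower and 0 higher at day 42, beside 4.86% lower for all genes, 16 were within 2-fold, and 7 lay above 0. After median centring 2 were past 2-fold, ACTA2 and LMOD1, and after lowess 2, ACTA2 and TAGLN. LMOD1 was over 50 at day 21 alone. Among the 16 list genes over 50 on both arrays 3 were lower, beside 2.02% of all such genes. The list's median was -0.28, and although it became 0.08 after median centring it stayed below the median of all genes under each scaling. ACTA2, smooth muscle actin and the usual sign of a contractile stromal cell, read 438 at day 3, 627 at day 21 and 140.0 at day 42, a 4.48-fold difference between the later days. With TGF-beta3 it was several times higher but had the same step, 3368 at day 21 and 812 at day 42. TAGLN, an actin-binding protein of contractile cells, read 144 and 59.6 without TGF-beta3, and 1478 and 389 with it.

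LMOD1, which nucleates actin filaments in smooth muscle, read 72.5 at day 21 and 7.73 at day 42, at least 4.79-fold lower. With TGF-beta3 it read 60.1 and 77.8, with no such step. PDLIM7, a scaffold on actin fibres, read 134 and 66.4. The members that are common to all cells did not share the step: TPM1 read 3224 and 3335, and MYL6 read 4453 and 5328. Of the 5 smooth muscle markers, MYH11 and DES were under the floor on both arrays, and CNN1, calponin, went the other way under 50, with 11.6 at day 21 and 32.8 at day 42, at least 2.17-fold higher. The summed signal of the 5 was 786 at day 21 and 237 at day 42, and most of it was ACTA2.

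Of 20 measured fibrous matrix genes 4 were at least 2-fold lower at day 42 and 0 were higher, beside 4.86% lower for all genes. The other 16 were within 2-fold. FBLN1 was over 50 at day 21 alone. Among the 19 list genes over 50 on both arrays 3 were lower, beside 2.02% of all such genes. Of the 20, 16 lay below 0, with a median of -0.34. Median centring brought this median to 0.03, still below the 0.46 of all genes under that scaling. COL1A1, the main chain of type I collagen, read 3976 at day 3, 1505 at day 21 and 478 at day 42, a 3.15-fold difference between the later days. COL15A1, a collagen of basement membrane zones, read 1702, 461 and 115, a 3.997-fold difference, and its second probe set was 2.05-fold lower. FBLN1 and EFEMP2, both fibulins that bind elastic and basement membrane fibres, read 86.3 and 31.2, and 149 and 62.7.

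The other large collagens were lower within 2-fold. COL1A2 read 7798 at day 3, 3238 at day 21 and 1869 at day 42, and COL3A1 read 8224, 4531 and 3245. For these collagens day 42 continued the order of day 3 above day 21. DPT, dermatopontin, was the member highest above 0, with 209 and 293. Among 18 measured genes that process and crosslink collagen, 3 were at least 2-fold lower, beside 4.86% of all genes, and 0 were higher. The count was 1 after median centring, and 1 over 50 on both arrays. LOX, the enzyme that starts collagen crosslinks, read 774 at day 21 and 332 at day 42, where the arrays with TGF-beta3 read 1989.6 and 2672. P3H2, a prolyl hydroxylase, read 145 and 46.5, and ADAMTS2, which removes the procollagen propeptide, read 111 and 49.3. The hydroxylases PLOD1 and PLOD2 and the chaperone SERPINH1 differed by less than 0.12 in log2.

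**Figure D3:**
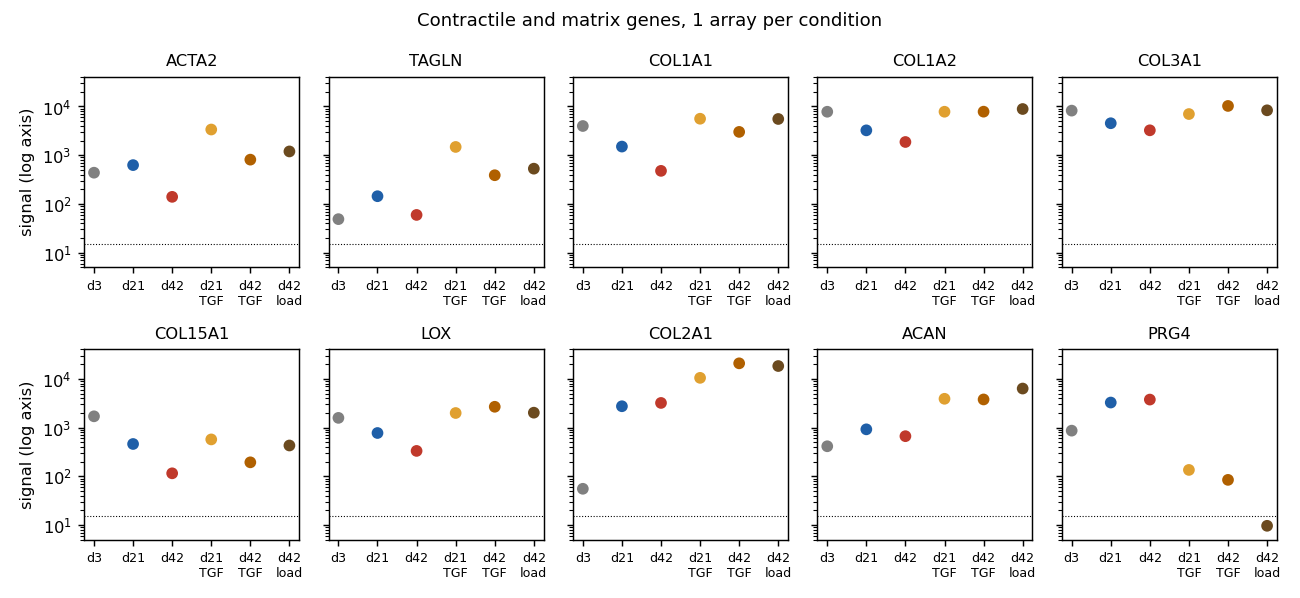
Signal on a log axis of 2 contractile genes and 8 matrix genes on each of the 6 arrays, 1 point per array, with the dotted line at the floor of 15.1. The day 42 point without TGF-beta3 is the lowest of the 6 for ACTA2, COL1A1, COL1A2, COL3A1, COL15A1 and LOX, while COL2A1 and PRG4 read about the same at days 21 and 42.

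Of the 9 markers of the marrow stromal cell VCAM1 and ALCAM were at least 2-fold lower at day 42 and 0 were higher. Among all genes 4.86% were lower and 3.72% higher. Of the 9, 6 were over 50 at day 21 and 5 at day 42, and their summed signal was 3451 at day 3, 2131 at day 21 and 1485 at day 42. ALCAM, an adhesion molecule used to sort these cells, read 379 and 187, and NT5E, the surface enzyme CD73, read 676 and 379. CD44, the hyaluronan receptor, read 423 and 483. LEPR, a marker of marrow stroma in the animal, was under the floor on all 6 arrays, and ENG and PDGFRB did not reach 50 on either day. In the longer stromal list, the same 2 of 16 measured genes were at least 2-fold lower, beside 4.86% of all genes, and 0 higher. VCAM1 was over 50 at day 21 alone. Among the 15 list genes over 50 on both arrays 1 was lower, beside 2.02% of all such genes. The list's median was -0.20 and became 0.18 after median centring, still below the 0.46 of all genes under that scaling.

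Of 33 measured adhesion genes 2 were at least 2-fold lower, a share near the 4.86% of all genes: GPC4, a cell surface heparan sulphate proteoglycan (147 and 56.6), and ITGB3, an integrin chain (375 and 168). CLDN11, a tight junction protein, stood alone on the other side with 15.9 at day 21 and 78.3 at day 42, and its other probe set was under the floor on both arrays. VCL, vinculin of focal adhesions, read 1031 and 566, within 2-fold. PTK2, the focal adhesion kinase, was 3.49-fold lower on its brightest probe set (196 and 56.0), but 1.17-fold lower on another (124 and 106).

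Of 7 measured cartilage matrix genes 6 were within 2-fold between the days. The list's median was -0.13, below the 0.08 of all genes, and it stayed below under each of the 4 other scalings. COL2A1, the cartilage collagen, read 55.5 at day 3, 2739 at day 21 and 3202 at day 42 without TGF-beta3, against 10475 and 20799 with it. An array labelled undifferentiated thus carried a type II collagen signal at both later days, although the 3 other COL2A1 probe sets were below 50 on both arrays. ACAN, the large proteoglycan aggrecan, read 414, 920.3 and 666. COL27A1, a cartilage fibril collagen, was the 1 member of 7 measured past 2-fold, with 139 at day 21 and 61.1 at day 42. Among all genes 4.86% were lower. COL11A1, another chondrocyte marker, read 3603 and 2366 on its brightest probe set, lower within 2-fold. COL9A1 read 31.5 and 58.9 and COMP, a cartilage glycoprotein, read 240.4 and 393, higher within 2-fold.

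PRG4, the joint lubricant lubricin, read 3263 and 3752 on its brightest probe set, and its other 3 probe sets lay between -0.79 and 0.35 on the log2 scale. OGN, a small leucine-rich proteoglycan, was 2.50-fold lower with 379 and 152. Among 7 measured genes of hypertrophy and mineralisation, MMP13, a collagenase of hypertrophic cartilage, was the 1 past 2-fold, beside 3.72% higher for all genes. It read 738 at day 3, 35.8 at day 21 and 81.4 at day 42, and its second probe set read 38.8 and 132. COL10A1, the collagen of hypertrophic chondrocytes, did not enter, with 3.73 and 15.99. IBSP, bone sialoprotein, read 5750.4 and 6588, SPP1, osteopontin, read 3498 and 3671, and BGLAP, osteocalcin, was under the floor on both arrays.

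Fat cell genes were present at both days without a clear step. Of 32 measured adipocyte genes 4 were at least 2-fold higher, beside 3.72% of all genes, and 0 lower, with a median of 0.29. ANGPTL4, 1 of the 4, was over 50 at day 42 alone. Among the 30 list genes over 50 on both arrays 3 were higher, beside 2.06% of all such genes. The defining genes stayed within 2-fold: PPARG, the master regulator of fat cells, read 676 at day 21 and 771 at day 42. ADIPOQ, adiponectin, read 332 and 290.1. CIDEC, a lipid droplet protein, read 846 and 829, while it had read 6.27 at day 3.

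The 4 higher members act in fatty acid transport and release or in steroid activation. FABP3, a fatty acid carrier, read 177 and 415, and PNPLA2, the lipase that starts triglyceride breakdown, read 212 and 458. HSD11B1, which turns cortisone into cortisol, read 136 and 315, and ANGPTL4, an inhibitor of lipoprotein lipase, read 40.3 and 90.6. Among other lipid genes, FADS2, a desaturase of polyunsaturated fatty acids, was 3.36-fold higher, with 146 at day 3, 697 at day 21 and 2341 at day 42. The 16 measured genes of cholesterol synthesis and uptake had a median of 0.40 and none past 2-fold. FDFT1, squalene synthase, was the furthest of them with 883 and 1624.

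All 46 measured genes of the mitochondrial respiratory chain read higher at day 42, from 0.12 to 0.82 on the log2 scale, with a median of 0.41 and none past 2-fold. These are bright genes, and bright genes read higher in general: the brightest of 5 equal parts of all genes had a median of 0.21. COX7C, a subunit of cytochrome oxidase, read 4465 at day 3, 3902 at day 21 and 6779 at day 42. NDUFC1, a subunit of complex I, read 791, 939 and 1657. The list stayed above the median of all genes under each scaling, with 0.31 against 0.11 after quantile normalization and 0.27 against 0.11 after lowess.

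The 26 proteasome genes had a median of 0.34 and 18 genes of fatty acid oxidation one of 0.32, also above the median of all genes under each scaling and also with none past 2-fold. Ribosomal protein genes had 56 of 59 members above 0 and a median of 0.25, but this became 0.04 after quantile normalization and -0.00 after lowess, below the median of all genes in both. RPS19 was the 1 ribosomal member past 2-fold, beside 4.86% lower for all genes. It was lower with 95.7 and 33.9, and this probe set is far dimmer than the rest of the list.

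**Figure D4:**
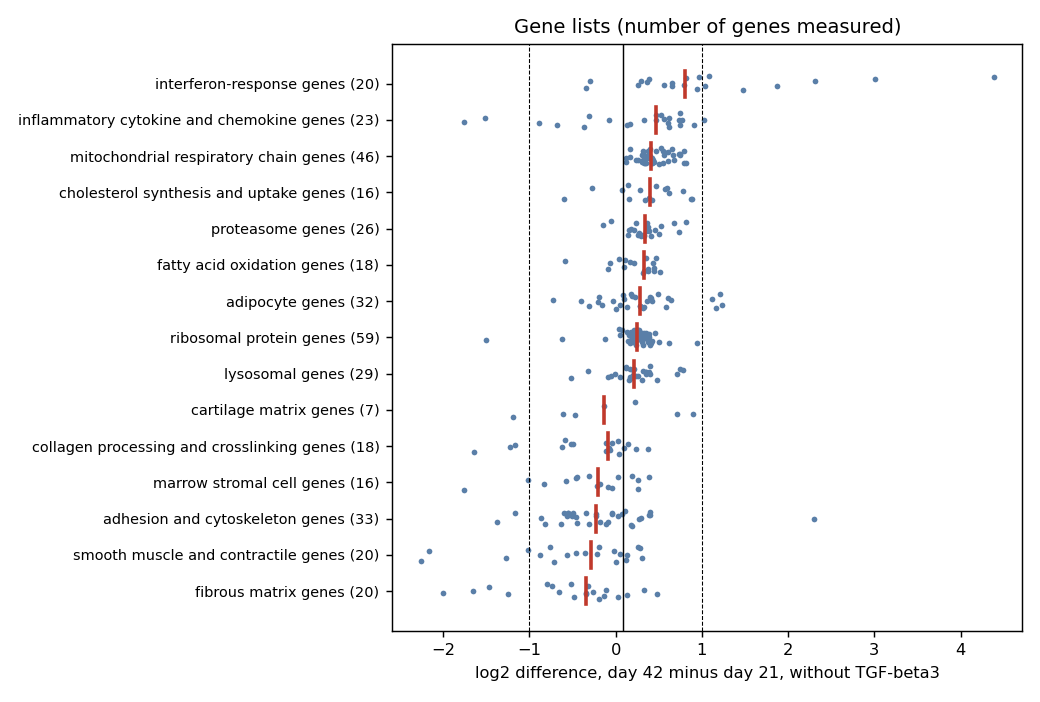
Log2 difference of day 42 minus day 21 without TGF-beta3 for the measured genes of 15 lists, 1 point per gene, with a red bar at each list's median, a solid line at the median of all genes (0.08) and dashed lines at 2-fold. The interferon list reaches furthest to the right, the 46 respiratory chain genes lie close together right of the line, and the fibrous matrix and smooth muscle lists reach furthest to the left. The medians left of 0 move to between 0.03 and 0.27 after median centring, where the median of all genes is 0.46. The ribosomal median moves to -0.00 after lowess.

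IGF1, insulin-like growth factor I, was the 1 of 17 measured insulin-like and fibroblast growth factor genes past 2-fold, beside 4.86% lower for all genes. It read 58.5 at day 3, 93.3 at day 21 and 11.8 at day 42, at least 6.16-fold lower, and its 3 other probe sets did not reach 50. IGFBP3, which binds it in serum, read 2978 and 3103. In that list 13 genes lay below 0, with a median of -0.23. It became 0.17 after median centring, still below the 0.46 of all genes under that scaling. SESN2, sestrin 2, is a stress-induced regulator of cell growth. It was the 1 of 12 measured cell cycle arrest and p53 target genes past 2-fold, beside 4.86% lower for all genes. It read 158 and 20.1, a 7.84-fold difference, and a second probe set read 39.99 and 11.9. IGF1 and SESN2 were each over 50 at day 21 alone. MTSS1, which links actin to curved membrane, read 187 and 6.59, at least 12.4-fold lower, and a second probe set was 2.96-fold lower.

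Of 20 measured immediate early genes, which respond within minutes to growth factors and stress, 3 were at least 2-fold lower, beside 4.86% of all genes, and 0 higher. Over 50 on both arrays the count was 1, FOSL2. MYC read 133 at day 3, 125 at day 21 and 29.3 at day 42, a 4.27-fold difference. ZFP36, which shortens the life of cytokine mRNAs, read 88.6 and 20.8, and FOSL2, a member of the AP-1 family, read 137 and 53.2. JUN, JUNB and JUND differed by less than 0.10 in log2. Cell cycle genes were mostly dim: 33 of 50 with a probe set did not reach 50. Of the 17 measured 2 were lower, CKS2 (108 and 45.2) and TPX2 (51.1 and 24.2), beside 4.86% of all genes. Both were over 50 at day 21 alone, so the count carries that selection. Among the 13 over 50 on both arrays 0 were lower. TPX2 turned to 0.28 above 0 after lowess.

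Among 18 measured TGF-beta and BMP genes none was past 2-fold. TGFB2, a TGF-beta ligand, was the furthest, with 1263 at day 21 and 701 at day 42. Of 11 Wnt and hedgehog genes TCF7, a transcription factor of the pathway, was at least 3.45-fold lower (52.2 and 12.3), and its other probe set did not reach 50. This 1 of 11 stands beside 4.86% lower for all genes, and TCF7 was over 50 at day 21 alone. FRZB, a secreted Wnt antagonist, read 179 and 341.

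Other lists held few members past 2-fold. Of 16 measured proteases and inhibitors 3 were higher, beside 3.72% of all genes: MMP13 and, with it, PLAT, tissue plasminogen activator (24.7 at day 21 and 55.0 at day 42), and TIMP4, an inhibitor of metalloproteinases (42.9 and 93.4). All 3 were over 50 at day 42 alone, and the count was 0 with the floor at 50, with the signal filter at 100 and over 50 on both arrays. SLC16A3, a lactate exporter, was the 1 of 27 genes of hypoxia and glycolysis, with 23.8 and 70.4. SOD3, the secreted superoxide dismutase, was the 1 of 36 antioxidant genes, with 31.2 and 66.0. Of 19 lineage transcription factors ETS1 was higher (37.5 and 82.3), and ERG (80.2 and 30.3) and TCF4 (548 and 258) were lower. These counts stand beside 3.72% higher and 4.86% lower for all genes. SLC16A3, SOD3 and ETS1 were over 50 at day 42 alone, and ERG at day 21 alone. None of 29 lysosomal and none of 34 chaperone genes was past 2-fold, and their medians were 0.21 and 0.22.

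Outside the lists, the genes over 50 on both arrays with the largest steps upward were led, after ISG12(B), by CA2, carbonic anhydrase II, with 55.9 at day 21 and 232 at day 42, and by HOPX, a homeodomain protein that does not bind DNA, with 63.3 and 253. S100G, a vitamin D-dependent calcium-binding protein, read 71.0 at day 3, 468 at day 21 and 1567 at day 42, and at most 12.01 on the arrays with TGF-beta3. GYPC, a membrane glycoprotein, read 71.2 and 235, and PARP1, a sensor of DNA breaks, read 50.7 and 149.9. Of the genes over 50 at day 42 alone, OSMR, the receptor of oncostatin M, read 11.99 and 85.1, at least 5.62-fold higher. Its other bright probe set went the opposite way with 62.7 and 29.96, so no direction can be given for OSMR. CATHL5, a cathelicidin antimicrobial peptide, read 8.30 and 83.9, at least 5.54-fold higher.

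The largest steps downward outside the lists included SPARCL1, a matrix protein related to osteonectin, with 111 at day 21 and 15.9 at day 42. It had read 4.29 at day 3, so day 21 alone was high. IGSF10, an immunoglobulin superfamily protein, read 161 and 52.6. CEP120, a protein of centrioles, was 3.38-fold lower on its brightest probe set but 1.15-fold lower on the other. SORBS3, the adhesion adaptor vinexin, read 177 and 61.0.

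The same 2 days can be set side by side with TGF-beta3, where neither array is shared. Of the 4947 genes measured in both pairs, 674 (13.6%) were at least 2-fold higher and 605 (12.2%) lower with TGF-beta3, against 144 (2.91%) and 215 (4.35%) without it. Of the 199 genes higher without TGF-beta3, 144 were measured with it: 36 of these (25%) were higher there too and 15 (10.4%) lower. Of the 260 lower genes, 215 were measured with it: 50 (23.3%) were lower there too and 25 (11.6%) higher. The lower genes held in both pairs included ACTA2, TAGLN, COL15A1, FBLN1 and MYC. The interferon list had a median of -0.10 with TGF-beta3 over the 14 members measured there. Its median of 0.81 without the factor is over 20 members, so the medians cover unlike sets. The other 6, ISG15 and MX1 among them, did not reach 50 on either unloaded array with TGF-beta3. With 1 array per cell of this design the difference between the pairs was not tested.

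The direction moved with the signal and the naming of the probe sets. Split into 5 equal parts by mean signal, the dimmest part of the members had a median of -0.45 with 8.41% higher and 28.3% lower, and the brightest part a median of 0.16 with 0.38% higher and 0.57% lower. Probe sets with a gene name had a median of 0.03 (n = 6868), against -0.23 for those without a name of their own (n = 3713). In the dimmest part 333 of the 908 probe sets without a name were lower, against 266 of the 1209 with one. Of the 1025 lower probe sets 599 lay in the dimmest part, and the part of RNA quality in that count was not tested.

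**Figure D5:**
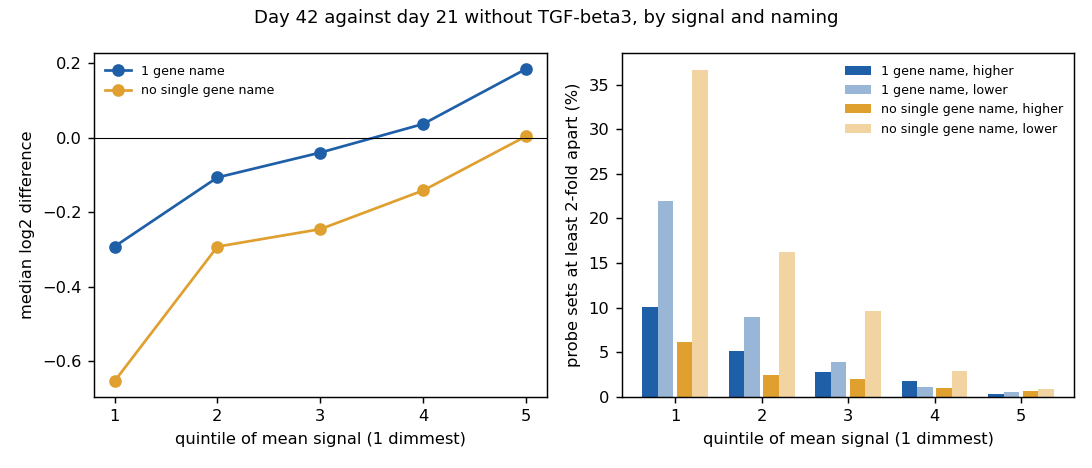
Median log2 difference of day 42 minus day 21 without TGF-beta3 (left) and percent of probe sets at least 2-fold higher or lower (right), by the 5 equal parts of mean signal from 1 (dimmest) to 5 (brightest), for probe sets with 1 gene name and those with none or several. The medians run from -0.29 in the dimmest part to 0.18 in the brightest with a name, and from -0.65 to 0.00 without one, and the share past 2-fold is largest in the dimmest part. That share carries the signal limit, since a member with a mean under 50 must differ between the 2 arrays.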

How the data were processed

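RNA of agarose constructs was read on 6 Affymetrix bovine arrays, 1 per condition, after linear amplification of the RNA, per the labels' protocols. The deposited intensity values are linear probe set signals. The submitters' processing notes name MAS5, with no version, and the mean over the middle of each array, with 2% trimmed at each end, was 150.0 to 150.1. Precision is limited by there being 1 array per condition. The values were used as deposited, without the 112 control probe sets, with a floor at the 40th percentile (15.1) and log2 after it. Gene names came from the platform annotation: of 24016 probe sets 13292 had 1 gene, 86 several and 10638 none. Each gene was read by its brightest probe set, by mean log2 after the floor over the 6 arrays.

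No test was possible, and differences were described by size (2-fold). Named genes were the 15 highest and 15 lowest over 50 on both arrays, the 10 highest and 10 lowest over 50 on 1, up to 4 each way per list past 2-fold, and 12 fixed genes. Other genes of the 33 lists and second probe sets are named as list members or to show a spread, chosen after their values were seen. The members and lists were chosen with earlier results of these data known. The alternatives were 3 other scalings, 2 floors, 3 signal filters, 2 sizes, 1 value per gene, and, added after the values were seen, centring on probe sets over 50 on both arrays and a lowess fit. The scripts, in Python 3.11.15 with numpy 2.4.6, pandas 2.3.3, scipy 1.17.1 and matplotlib 3.10.9, were tested on simulated data. Promoter motifs and sequences were not analysed here.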

Additional observations from a re-analysis of the deposited data

Results flagged for a closer look

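In 11 named genes the later day was at least 2-fold higher without TGF-beta3 and at least 2-fold lower with it, or the reverse. Each direction rests on 1 array per day, and the difference between the pairs was not tested. The signal limit of 50 was not applied to the pair with TGF-beta3 here. L3MBTL2, QNG1 and HSD11B1 did not reach 50 on either unloaded array with the factor. By that limit they were not measured there, and their lower values with it are between dim signals. Higher without and lower with the factor were OSMR (2.49 and -1.06 in log2, with its probe sets in conflict), CATHL5 (2.47 and -2.37) and L3MBTL2, a Polycomb-related chromatin protein (2.36 and -1.60). CA2 had 2.05 and -2.08: it read 55.9 and 232 without TGF-beta3, and 459.8 and 109 with it. QNG1 had 1.62 and -1.54, and PARP1 had 1.56 and -1.07. FABP3 had 1.23 and -2.25: it read 177 and 415 without the factor, and 881 and 185 with it. HSD11B1 had 1.21 and -1.16. MMP13 had 1.19 and -2.01, and its second probe set had 1.76 and -2.81. Lower without and higher with it were FOSL2 (-1.37 and 1.72) and ISLR (-1.38 and 2.23), which read 136 and 52.4 without the factor, and 15.2 and 71.2 with it.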

How the results depend on the processing

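The counts of probe sets at least 2-fold higher and lower, 355 and 1025, were 1108 and 528 after median centring, 536 and 612 after quantile normalization, 208 and 537 both with the floor at 50 and with the signal filter at 100, 161 and 364 over 50 on both arrays, 199 and 260 with 1 probe set per gene, and 659 and 432 after lowess. They were 1135 and 2193 at 1.5-fold and 102 and 379 at 3-fold. With equal spikes they were 238 and 1428, and with a signal filter of 25 they were 485 and 1485. The 7 higher interferon genes became 15 after median centring and 1 over 50 on both arrays. The 3 lower collagen processing genes became 1 after median centring and 1 over 50 on both arrays. The 4 lower smooth muscle genes became 2 after median centring and 2 after lowess. The 3 higher proteases and inhibitors became 1 with equal spikes and 0 with the floor at 50, with the filter at 100 and over 50 on both arrays. The 3 lower immediate early genes became 1 over 50 on both arrays. The counts of 4 lower fibrous matrix genes and 4 higher adipocyte genes stayed within 1.5 times under the alternatives run. Of 920 recomputed values of the 90 named genes past 2-fold, 2 reversed, TPX2 to 0.28 and TCF7 to 0.059, both after lowess, and 70 were under 2-fold. Past 2-fold in every value given were 47 of the 90. A gene that failed a signal filter gave no value under it and could not fall short there. ISG15 and MX1, for example, gave none over 50 on both arrays. Apart from selection by construction of each filter, the cause was not tested. Lowess and the centring on probe sets over 50 on both arrays were chosen after seeing the data. No paired analysis was possible because each condition has 1 array and the labels give no replicate numbers, and for the same reason no array could be left out. The promoter motif search was not run.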

Other observations

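Among 1808 genes with a signal over 500 on at least 1 of the 2 arrays, 20 were at least 2-fold higher at day 42 and 8 lower, around a median of 0.19. This limit was chosen after the values were seen. Of the higher genes, 18 had a proper symbol, and those named here were picked after their values were seen. CHCHD2, a mitochondrial protein of the intermembrane space, read 1829 at day 21 and 3933 at day 42. TIMM13, a chaperone for import into the inner membrane, read 385 and 825, and MTLN, a small protein of the inner membrane, read 273 and 678. PHYH, the peroxisomal enzyme that begins the breakdown of phytanic acid, read 964 and 2038, and PEX11A, a peroxisome division factor, read 226 and 563.

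DEFB4A, a beta-defensin antimicrobial peptide, read 943 at day 3, 932 at day 21 and 2283 at day 42 without TGF-beta3, and 109 and 30.7 at days 21 and 42 with it. Its probe set is of the type that can also read related transcripts. The 8 lower bright genes were ACTA2, COL1A1, LOX, TCF4, KMT2E, SRRM2, AGPAT5 and SEPTIN11. KMT2E, a chromatin protein, read 1326 at day 21 and 597 at day 42, and SRRM2, a splicing scaffold, read 965 and 444.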
